A study of Homo sapiens with 6 samples.

Results

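The metallothionein genes MT1E, MT1F, MT1G, MT1X and MT2A were followed in MDA-MB-231, a triple-negative, claudin-low human breast cancer cell line. They were found by their symbols in the count data and are 5 of the 24462 gene symbols counted. RNA was taken 48 h after transfection and read by QuantSeq, a 3′ mRNA method in which each polyadenylated transcript gives reads close to its 3′ end. By their labels, the NC mimic group received a non-specific control mimic, the miR-200a group received the miR-200a mimic (100 nM), and the miR-200a plus ELK3 group received the same mimic (100 nM) with a plasmid (30 ng) labelled pcDNA3.1 Hygro(+)-ELK3 or pcDNA3.1-Flag-ELK3. Libraries of the last group are written as labelled co-transfected in the text and as miR-200a plus ELK3 in the plots. Each of the 3 groups had 2 libraries, all of them from the same cell line. The plasmid carried the coding region of ELK3, an ETS family transcription factor, without its own 3′UTR. The labels name no empty plasmid for the other groups, so delivery of a plasmid and expression of ELK3 cannot be told apart here.

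Metallothioneins are small, cysteine-rich proteins that bind zinc, copper and cadmium, buffer free zinc and take up oxidants. Their genes are switched on when the zinc sensor MTF1 binds metal response elements in their promoters, and glucocorticoids also induce MT2A. In breast tumours, metallothionein protein has long been studied as a marker linked to growth and drug resistance, and MT2A is usually its most abundant transcript.

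The 5 genes lie in a cluster on chromosome 16, and their positions are given on GRCh38 with GENCODE release 29, because the counts come without coordinates and the submitters' processing notes name another build, hg19. MT2A is at chr16:56608199-56609497, MT1E at chr16:56625475-56627112, MT1F at chr16:56657694-56660698 and MT1X at chr16:56682424-56684196, all on the plus strand. MT1G is at chr16:56666731-56668065 on the minus strand. The stretch from the start of MT2A to the end of MT1X covers 76.0 kb. MT1X overlaps AC026461.1, a transcript on the same strand, so reads of the 2 genes could be mixed.

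The miR-200a mimic carries the mature miR-200a-3p sequence, which is shown because a direct target would hold the complement of its seed. The seed, bases 2 to 8, is in capitals (RefSeq, GRCh38.p14, chr1:1167916-1167937, plus strand).
hsa-miR-200a-3p: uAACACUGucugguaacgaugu
The complementary 7-base site, CAGTGTT, had 0 matches in the 3′UTR (139 to 148 bases) and 0 in the whole principal transcript of each of the 5 members. That says only that these letters are not in those transcripts.

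The metal response element is the sequence through which metals act on this family, and it was searched for in the 300 bases around the start (250 before and 50 after) in RefSeq promoters of GRCh38.p14. An entry was found for 2 of the 5 members, MT1X (chr16:56682220-56682519) and MT2A (chr16:56608334-56608633), both on the plus strand. The start used there is RefSeq's, at base 56682470 for MT1X and base 56608584 for MT2A, which lies 46 and 385 bases inside the GENCODE gene bounds given above. The cores searched were TGCACNC and TGCGCNC on both strands, which cannot match at the same base of a strand. The core is in capitals below, with up to 10 bases on either side, each written 5′ to 3′ on the strand that holds it.
MT1X, plus strand, 150 bases before the start: ggccccgcggTGCGCCCggcgctgggc
MT1X, plus strand, 122 bases before the start: cacgggttgcTGCACCCggcccaggat
MT1X, minus strand, 78 bases before the start: gcctcgtcctTGCACCCgcccctgctg
MT1X, plus strand, 53 bases before the start: gcggggcctcTGCGCCCggccctcttc
MT2A, plus strand, 153 bases before the start: cagagccgggTGCGCCCggcccagtgc
MT2A, minus strand, 88 bases before the start: gggcgctgccTGCACACgccccgcgct
MT2A, plus strand, 54 bases before the start: gcggggctttTGCACTCgtcccggctc
The MT1X promoter held 4 cores in all, a number that 0.458% of the 35116 promoters reached. The MT2A promoter held 8, of which 3 are shown, and 0.0171% of promoters reached that number. The TGCACNC core was in 12.1% of all promoters and the TGCGCNC core in 20% of them. The ETS consensus CCGGAAGT, for the factor family to which ELK3 belongs, had 0 matches in both promoters and was in 4.14% of all. These matches are a description of letters and not a measurement of binding.

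Libraries held 3055915 to 4868004 counts, and 3 counts, taken as the least that can be read, corresponded to 0.611 to 0.979 CPM (counts scaled by TMM to the same effective library size). This limit covers counting error only. The number of reads per transcript is not tied to length in a 3′ method, so CPM was used as it stands to compare the levels of different genes. Of the 24462 symbols, 12650 had enough counts to be tested, all 5 members among them, and each comparison was made by edgeR's quasi-likelihood test with Benjamini-Hochberg adjustment over the 12650 genes. The labels do not say that the 2 libraries of a group came from separate cultures, so the p-values measure the spread between these libraries, which may be technical. The 2 libraries labelled co-transfected differed from each other more than those of the other groups, with a root mean square log2 CPM difference of 0.56, against 0.40 in the NC mimic group and 0.34 in the miR-200a group. Chi-square per degree of freedom, which grows with spread beyond counting error, was 13.4 for this pair, against 2.38 and 1.90. All 3 groups entered the same estimate of the spread.

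ELK3 itself was counted first as a check of the labels. It had 618 and 509 counts under the NC mimic, 493 and 505 under miR-200a, and 406 and 337 in libraries labelled co-transfected. Its level was thus lowest in libraries labelled co-transfected (log2 fold change -0.79 ± 0.15 SE against the NC mimic, edgeR adjusted p = 0.0117, and -0.23 ± 0.15 SE against miR-200a, adjusted p = 0.354). Under miR-200a it had -0.56 ± 0.15 SE against the NC mimic (edgeR adjusted p = 0.232). Reads of the plasmid transcript may fall outside the 3′ end that is counted as ELK3, or the labels may be wrong, and neither was tested. If the labels were wrong, every comparison of these libraries would mean something else. By qRT-PCR and western blot, the paper reports that co-transfection brought ELK3 mRNA and protein back to the control level, in cells not said to be those sequenced. The check of these counts settles nothing about the plasmid, and these libraries are called labelled co-transfected at every result. The cell line's own markers VIM, CD44, AXL, CAV1, MSN and TGFBI were all found, with a summed level of 4725 to 4999 CPM under the NC mimic, 4778 to 4986 under miR-200a and 3298 to 4198 in libraries labelled co-transfected. CD44 and TGFBI, 2 of these 6, were lower in the last group than in both others at an adjusted p under 0.05. The luminal markers ESR1, PGR, ERBB2, GATA3, FOXA1 and CDH1 summed to 42.8 to 44.7 CPM under the NC mimic, 55.2 CPM in both miR-200a libraries and 27.7 to 40.3 CPM in libraries labelled co-transfected, so these groups did not overlap. ERBB2 made up most of this sum, ESR1 was at 0 in all 6 libraries, and CDH1, the gene of E-cadherin, had 1 and 0, 11 and 12, and 3 and 3 counts in the 3 groups. None of the 3 tested luminal markers was called. The part of these shifts in the metallothionein results was not tested.

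MT2A, the main metallothionein of most human cells, stood far above the others and was among the most counted genes of the cell line. It had 27214 and 16982 counts under the NC mimic, 25301 and 25091 under miR-200a, and 17158 and 17430 in libraries labelled co-transfected. By count, it ranked 4 and 4 of 24462 symbols under the NC mimic, 4 and 5 under miR-200a, and 9 and 10 in libraries labelled co-transfected. Its level was 5801 ± 367 CPM (SD, n = 2), 5183 ± 99.4 CPM (SD, n = 2) and 4080 ± 23.2 CPM (SD, n = 2) in the same order. No library labelled co-transfected reached the level of any other library.

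MT1E, one of the MT1 isoforms, came next, with 3378 and 1976 counts under the NC mimic, 3013 and 3030 under miR-200a, and 2647 and 1953 in libraries labelled co-transfected. Its level was 699 ± 76.0 CPM (SD, n = 2), 621 ± 5.78 CPM (SD, n = 2) and 543 ± 119 CPM (SD, n = 2). The last 2 libraries lay apart, at 627 and 459 CPM, and the first of them was level with the miR-200a libraries (626 and 617 CPM).

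MT1X, another MT1 isoform, had the widest range of the 5 as a ratio of its highest to its lowest level. It had 1431 and 951 counts under the NC mimic, 1245 and 1353 under miR-200a, and 363 and 230 in libraries labelled co-transfected. Its level was 314 ± 5.92 CPM (SD, n = 2) under the NC mimic, 267 ± 12.2 CPM (SD, n = 2) under miR-200a, and 70.0 ± 22.6 CPM (SD, n = 2) in libraries labelled co-transfected. The highest of the last libraries, at 86.0 CPM, was far below the lowest of the others, at 258 CPM. By count, MT1X fell from rank 516 to 668 in the first 4 libraries to rank 2648 and 3976 in the last ones.

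MT1F and MT1G had far fewer counts than the other members, though more than the filter's minimum count of 10 in every library. MT1F had 56 and 33 counts under the NC mimic, 71 and 71 under miR-200a, and 37 and 26 in libraries labelled co-transfected, which is 11.6 ± 1.20, 14.6 ± 0.194 and 7.44 ± 1.88 CPM (SD, n = 2 each). MT1G had 36 and 28, 39 and 33, and 21 and 30 counts in the same groups, or 8.58 ± 0.791, 7.41 ± 0.971 and 6.01 ± 1.47 CPM (SD, n = 2 each). The groups of MT1F did not overlap, whereas those of MT1G overlapped between miR-200a and both others except that the libraries labelled co-transfected stayed below the NC mimic.

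**Figure D1:**
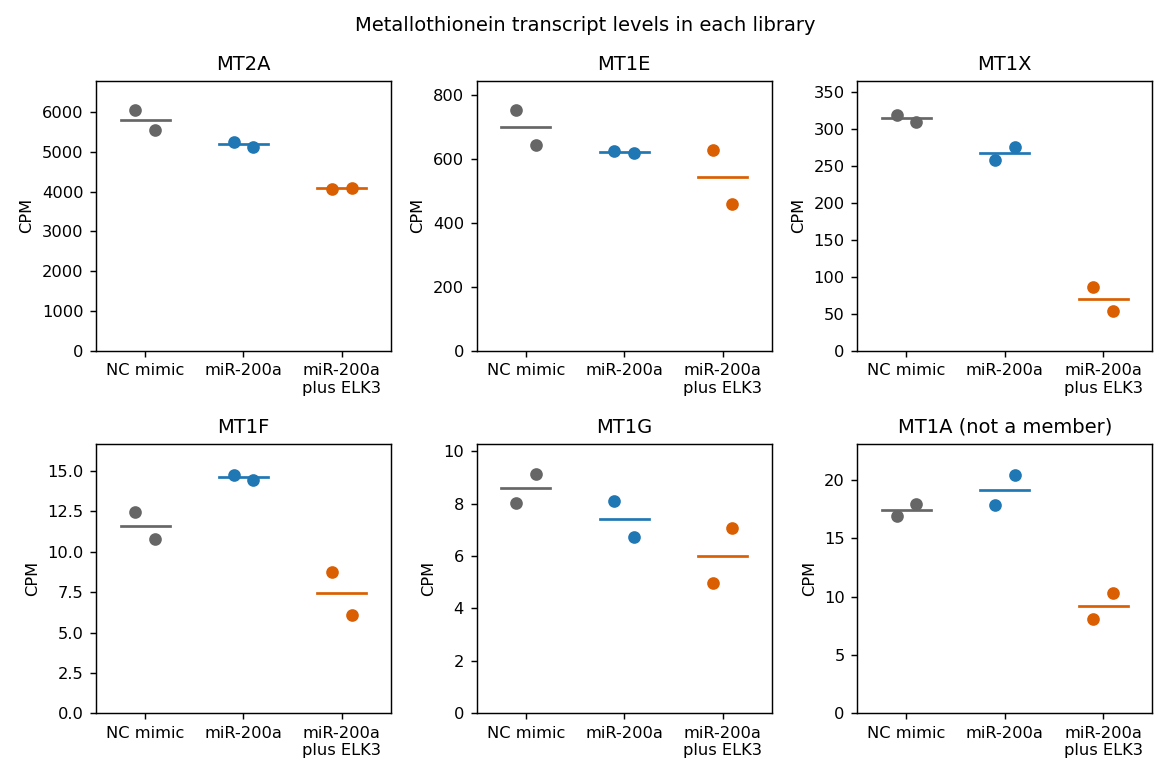
CPM (vertical axes, from 0, different for each gene) of the 5 metallothionein genes and of MT1A, another gene of the cluster, in the 2 libraries of each group (horizontal axes). Points are libraries and bars are group means. MT1X drops from 314 and 267 CPM to 70.0 CPM, while MT1E has one library of the last group at the level of miR-200a.

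The order of the levels was MT2A, MT1E, MT1X, MT1F, MT1G in every group. MT2A, MT1E and MT1X were apart from their neighbours in all libraries. MT1F and MT1G, the lowest pair, did not overlap under the NC mimic or under miR-200a, and overlapped in libraries labelled co-transfected (6.11 to 8.76 CPM for MT1F and 4.97 to 7.05 CPM for MT1G).

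With miR-200a alone, the question was whether the mimic changed the metallothioneins, and none of the 5 members passed the threshold. The members' log2 fold changes against the NC mimic were between -0.24 and 0.32 and had a median of -0.17, beside -0.02 over all tested genes. Over all tested genes, 0.269% were called in either direction, 0.213% as higher and 0.0553% as lower. At an unadjusted p under 0.05, 9.24% of all genes and 0 of the 5 members passed. MT2A had a log2 fold change of -0.16 ± 0.10 SE (95% interval -0.38 to 0.05, adjusted p = 0.686), and MT1X had -0.24 ± 0.18 SE (95% interval -0.63 to 0.16, adjusted p = 0.755). MT1F was the member with a higher level, at 0.32 ± 0.27 SE (95% interval -0.28 to 0.93, adjusted p = 0.795). MT1E and MT1G had -0.17 and -0.20. The intervals allow falls of up to 0.38 for MT2A and 0.92 for MT1G on the log2 scale, and the data do not show that the levels were equal. In a model of the 2 compared groups alone, MT2A (adjusted p = 0.0211) and MT1X (adjusted p = 0.0293) passed the threshold as lower under miR-200a. That model called 1047 of the 12650 tested genes, 490 of them lower. The log2 fold change of MT2A was -0.15 without the library labelled co-transfected replicate 1 and -0.14 without replicate 2.

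The libraries labelled co-transfected were then set against miR-200a, the comparison that by its labels differs in the plasmid. MT1X, MT1F and MT2A fell, and no member rose. Thus 3 of the 5 members were called lower, against 5.91% of all tested genes called lower, 7.03% called higher and 12.9% called in either direction. At an unadjusted p under 0.05 the same 3 members passed, beside 30.6% of all tested genes. The members' median log2 fold change was -0.35 and that of all tested genes 0.02. The fall of MT1X was the deepest, to 3.81 times below its miR-200a level (log2 fold change -1.93 ± 0.19 SE, 95% interval -2.35 to -1.51, adjusted p = 0.000682), which placed it 112th from the lowest of the 12650 tested genes. MT1F fell 1.96-fold (-0.97 ± 0.28 SE, 95% interval -1.60 to -0.34, adjusted p = 0.0489). MT2A fell 1.27-fold (-0.35 ± 0.10 SE, 95% interval -0.56 to -0.13, adjusted p = 0.0432). MT1E had -0.19 ± 0.15 SE (95% interval -0.53 to 0.14, adjusted p = 0.420) and MT1G had -0.30 ± 0.33 SE (95% interval -1.03 to 0.43, adjusted p = 0.576), and both overlapped between the groups. Whether fewer cells or less RNA per cell carried a fall cannot be told apart in bulk RNA.

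The calls of MT2A and MT1F in this comparison were lost in several other analyses, in which both genes stayed lower. DESeq2 gave an adjusted p of 0.0879 and 0.0958 for MT2A and MT1F, limma 0.170 and 0.0810, the replicate block 0.0921 and 0.0659, and a model of the 2 groups alone 0.0964 for both. When single NC mimic or miR-200a libraries were left out, the log2 fold change of MT2A was -0.36 to -0.33 and that of MT1F -0.98 to -0.96. The adjusted p of MT2A was then 0.0882 and 0.0888 without NC mimic replicate 1 and 2, and 0.320 and 0.288 without miR-200a replicate 1 and 2. For MT1F the same values were 0.0959, 0.0949, 0.233 and 0.235, and without the library labelled co-transfected replicate 2 MT1F had -0.77 (adjusted p = 0.0822). MT1E, in contrast, was called lower without the library labelled co-transfected replicate 1 (-0.45, adjusted p = 4.03e-05). MT1X was called in all 15 alternative analyses, with log2 fold changes from -2.32 to -1.67 and an adjusted p of at most 0.0442.

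Against the NC mimic, the libraries labelled co-transfected had lower MT1X and MT2A. These were 2 of the 5 members, against 5.95% of all tested genes called lower and 12.9% in either direction. At an unadjusted p under 0.05, MT1E passed as a further member, beside 30.6% of all tested genes. MT1X was 4.49-fold lower (log2 fold change -2.17 ± 0.19 SE, 95% interval -2.59 to -1.74, adjusted p = 0.000253), which placed it 76th from the lowest of the 12650 tested genes. MT2A was 1.42-fold lower (-0.51 ± 0.10 SE, 95% interval -0.72 to -0.29, adjusted p = 0.0109). The other members had -0.65 ± 0.30 SE (MT1F, adjusted p = 0.166), -0.50 ± 0.33 SE (MT1G, adjusted p = 0.342) and -0.36 ± 0.15 SE (MT1E, adjusted p = 0.136). All 5 members were lower in both of these libraries than in both NC mimic libraries. The share of all tested genes that did the same was not counted, so this only describes the 5. The median of the 5 was -0.51 beside 0.01 over all tested genes. This comparison shares libraries with each of the others, so the 3 sets of values are not independent.

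The call of MT2A against the NC mimic was also lost with limma (adjusted p = 0.125) and in a model of the 2 groups alone (adjusted p = 0.0619). It was lost too when single NC mimic or miR-200a libraries were left out, at log2 fold changes of -0.57 to -0.44. Its adjusted p was 0.125 and 0.0861 without NC mimic replicate 1 and 2, and 0.0572 and 0.0598 without miR-200a replicate 1 and 2. Without the library labelled co-transfected replicate 1, MT1E (-0.60, adjusted p = 4.00e-07) and MT1F (-0.93, adjusted p = 0.0421) were called lower as well. MT1X was called in all 15 alternatives, with an adjusted p of at most 0.0256.

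**Figure D2:**
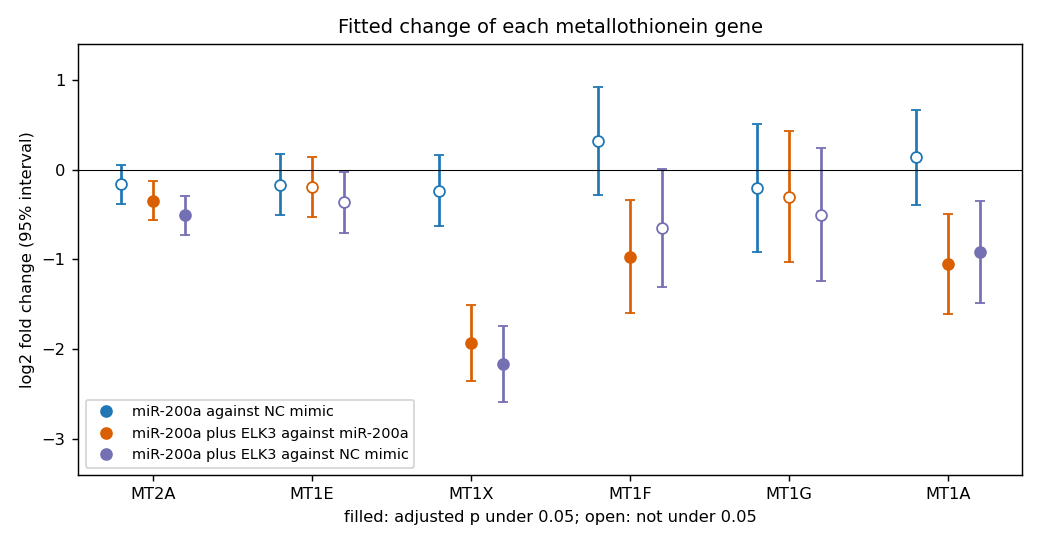
Fitted log2 fold change (vertical axis) of each metallothionein gene and of MT1A (horizontal axis) in the 3 comparisons, with 95% intervals as bars. Filled points have an adjusted p under 0.05 and open points do not. MT1X, at -1.93 and -2.17, lies below the intervals of MT2A and MT1E in both comparisons of the libraries labelled co-transfected.

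The members therefore did not fall by the same amount, and this was looked at within each library, where depth and scaling cancel. For each 1000 counts of MT2A there were 52.6 and 56.0 counts of MT1X under the NC mimic, 49.2 and 53.9 under miR-200a, and 21.2 and 13.2 in libraries labelled co-transfected. The last 2 were below all others. The mean log2 ratio of MT1X to MT2A was -4.20 under the NC mimic, -4.28 under miR-200a and -5.90 in libraries labelled co-transfected, a difference of -1.62 from miR-200a and -1.70 from the NC mimic. With 2 libraries against 2, a two-sided exact permutation test cannot go below p = 0.333, and both differences reached that value.

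MT1E kept its ratio to MT2A more closely. It had 124 and 116 counts for each 1000 of MT2A under the NC mimic, 119 and 121 under miR-200a, and 154 and 112 in libraries labelled co-transfected. The last pair lay on either side of the other 4 libraries. MT1F went from 2.06 and 1.94 under the NC mimic to 2.81 and 2.83 under miR-200a, and to 2.16 and 1.49 in libraries labelled co-transfected. MT1G stayed between 1.22 and 1.72 in all libraries.

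**Figure D3:**
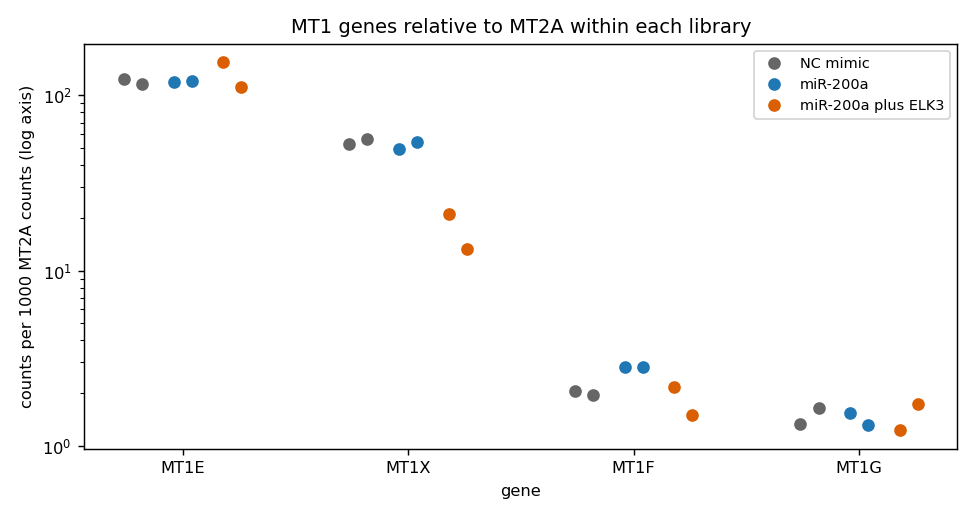
Counts of each MT1 gene for each 1000 counts of MT2A in the same library (vertical axis, log scale) by gene (horizontal axis), with 1 point per library and colours for the 3 groups. MT1X drops from 49.2 to 56.0 in the first 4 libraries to 21.2 and 13.2 in libraries labelled co-transfected.

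As shares of the summed counts of the 5 genes, MT2A made up 84.9% ± 0.211 (SD, n = 2) under the NC mimic, 85.1% ± 0.317 (SD, n = 2) under miR-200a and 86.7% ± 2.68 (SD, n = 2) in libraries labelled co-transfected. The share of MT1X was 4.61% ± 0.217, 4.39% ± 0.267 and 1.48% ± 0.442 (SD, n = 2 each). MT1E took 10.2% ± 0.441, 10.2% ± 0.0627 and 11.5% ± 2.23 (SD, n = 2 each). The 5 genes together had a level of 6834 ± 450 CPM under the NC mimic, 6093 ± 94.2 CPM under miR-200a and 4706 ± 118 CPM in libraries labelled co-transfected (SD, n = 2 each). MT2A made up most of the counts in all groups, and the share of MT1X was lower in both libraries labelled co-transfected than in the other 4.

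The transcripts of this family are alike, which limits how firmly counts belong to a single member. In the last 300 bases of the principal transcript, where 3′ reads fall, 30.7% of the 50-base words of MT1X also occurred in another gene. The shares were 28.7% for MT1G, 14.3% for MT2A, 12% for MT1E and 9.2% for MT1F. The genes that shared words with MT1X included AC026461.1, which overlaps it, so its share does not stand for likeness within the family alone. Of 30-base words, 45% were shared for MT1G, 39.1% for MT1E, 36.5% for MT1X, 34.7% for MT2A and 17.0% for MT1F, so both the share and its order depend on the word length. How reads that fit several genes were counted is not given in the sources used here, so the split between members is uncertain.

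Other metallothionein genes were looked up by symbol, and 11 of 15 listed ones were in the count data. MT1A, at chr16:56638666-56640087 between MT1E and MT1F, was the one with enough counts to be tested. It had 76 and 55 counts under the NC mimic, 86 and 100 under miR-200a, and 34 and 44 in libraries labelled co-transfected. Both of the last libraries were below the others. MT1A was lower there than under miR-200a (log2 fold change -1.05 ± 0.25 SE, adjusted p = 0.0243) and than under the NC mimic (-0.92 ± 0.26 SE, adjusted p = 0.0426). The second call was lost with the replicate number as a block (adjusted p = 0.0584), DESeq2 (0.0844), limma (0.0720) and a model of the 2 groups alone (0.0989). The first was lost with limma (adjusted p = 0.0673) and a model of the 2 groups alone (0.0640). When single NC mimic or miR-200a libraries were left out, the adjusted p was 0.0629 to 0.210 against miR-200a and 0.0943 to 0.219 against the NC mimic. MT1JP had 1 to 7 counts per library and MT1B, MT1H, MT1HL1, MT1IP, MT1L and MT1M had at most 3, while MT3, MT4 and MT1DP had 0 in all libraries.

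The sensor and transporters of metals were then described from lists of genes. MTF1, the zinc-sensing factor that switches on metallothionein genes, had 132 and 68 counts under the NC mimic, 109 and 99 under miR-200a, and 83 and 111 in libraries labelled co-transfected. The groups overlapped, and its log2 fold change in libraries labelled co-transfected was 0.10 ± 0.23 SE against miR-200a (adjusted p = 0.813). SLC30A1, a zinc exporter that MTF1 also induces, had 17 and 8, 13 and 38, and 46 and 11 counts in the same groups. Its replicates differed too much for a direction to be read (0.36 ± 0.63 SE, adjusted p = 0.731). SLC39A10, a zinc importer that MTF1 represses, had 308 and 241, 447 and 475, and 341 and 390 counts, with a log2 fold change of 0.37 ± 0.15 SE for miR-200a against the NC mimic (adjusted p = 0.488). With SELENOH, a nuclear selenoprotein, these are the 4 genes listed as MTF1 and its targets outside the family. Of these 4, 0 were called in the 3 comparisons as fitted here, beside 0.269%, 12.9% and 12.9% of all tested genes. With only 4 genes, that is close to those shares. In the first comparison, SLC39A10 was called higher under miR-200a in a model of the 2 groups alone and without either library labelled co-transfected. Without replicate 1 of the latter, SELENOH was called higher against miR-200a, and without replicate 2 SLC30A1 was called higher against the NC mimic. All of these fits also called more of all tested genes in the same comparison, with 1047 of 12650 in the model of the 2 groups alone.

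Of the 7 tested SLC30 zinc transporters, 0 were called in the 3 comparisons as fitted here, beside 0.269%, 12.9% and 12.9% of all tested genes. When a library labelled co-transfected was left out, SLC30A6 passed as higher against miR-200a, and SLC30A9, SLC30A1 and SLC30A7 passed as higher against the NC mimic. Those fits also called more of all tested genes. Of 12 tested SLC39 zinc importers, 0 were called between miR-200a and the NC mimic or between the libraries labelled co-transfected and miR-200a. Against the NC mimic, 3 were called higher in libraries labelled co-transfected, beside 6.92% of all tested genes called higher. SLC39A11 had 44 and 28 counts under the NC mimic, 97 and 83 under miR-200a, and 93 and 89 in libraries labelled co-transfected (log2 fold change 1.17 ± 0.24 SE, adjusted p = 0.0146). SLC39A4, the intestinal zinc importer, rose by 0.96 ± 0.20 SE (adjusted p = 0.0156), and SLC39A3 rose by 0.87 ± 0.19 SE (adjusted p = 0.0191). All 3 were already higher in both miR-200a libraries than in both NC mimic libraries, with adjusted p of 0.189 to 0.529. The share of all tested genes that did the same was not counted. In a model of the 2 groups alone, 4 of the 12 were called between miR-200a and the NC mimic (SLC39A4, SLC39A10 and SLC39A11 higher, SLC39A9 lower). The same model called 1047 of the 12650 tested genes. More of the 12 were called when either library labelled co-transfected was left out, and so were more of all tested genes. In the comparisons of these libraries, such calls went in both directions without replicate 1 and were all higher without replicate 2. SLC30 and SLC39 genes named only from these alternatives were chosen after their values were seen. When either NC mimic library was left out, the 3 calls against the NC mimic were lost, and fewer of all tested genes were called.

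Of 11 copper handling genes, 1 was called lower in libraries labelled co-transfected than under miR-200a, and 2 were lower than under the NC mimic, beside 5.91% and 5.95% of all tested genes called lower. None was called higher. Some were when either library labelled co-transfected was left out, in fits that also called more of all tested genes. ATP7B, a copper-exporting ATPase, had 46 and 23 counts under the NC mimic, 33 and 28 under miR-200a, and 11 and 10 in libraries labelled co-transfected. Its log2 fold change was -1.33 ± 0.39 SE against miR-200a (adjusted p = 0.0493) and -1.85 ± 0.38 SE against the NC mimic (adjusted p = 0.0146). ATP7A, the related copper ATPase, was lower than under the NC mimic (-1.17 ± 0.33 SE, adjusted p = 0.0457). With the replicate number as a block, ATP7B against miR-200a and ATP7A were no longer called. ATP7B was not called against miR-200a when any single NC mimic or miR-200a library was left out, and neither gene was called against the NC mimic when either NC mimic library was left out.

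**Figure D4:**
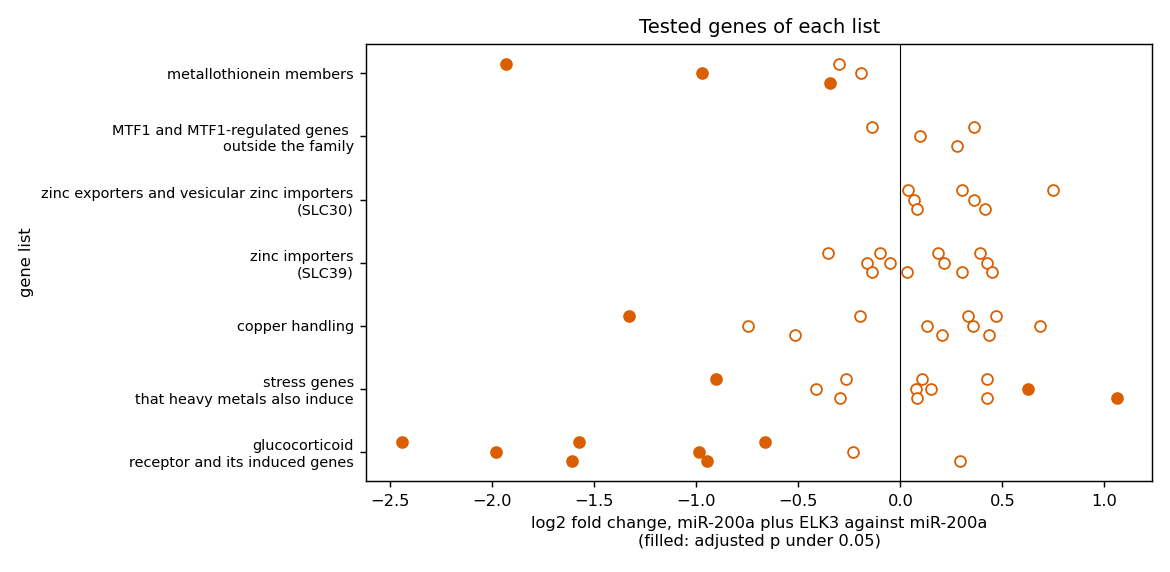
Log2 fold change of the libraries labelled co-transfected against miR-200a (horizontal axis) for each tested gene of the gene lists (vertical axis), with 1 point per gene. Filled points have an adjusted p under 0.05. All 5 metallothioneins lie below 0, while the SLC30 genes lie above 0 and none of them is called.

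To place the members among other genes, their log2 CPM was centred and averaged, and each gene outside the family with a mean log2 CPM above 3 (9932 genes) was compared with this mean over the 6 libraries. The 5 genes with the highest Pearson's r were LAMB2, a laminin chain (0.998), BHLHE40, a circadian transcription factor (0.996), NPC1, a lysosomal cholesterol transporter (0.996), ZNF395 (0.996) and LOC100131564 (0.996). The libraries fall into separate groups, so r mainly follows the drop in the last 2 and is given as a description. BHLHE40 had 387 and 265 counts under the NC mimic, 380 and 368 under miR-200a, and 105 and 61 in libraries labelled co-transfected, a log2 fold change of -1.97 ± 0.22 SE against miR-200a (adjusted p = 0.00154), close to that of MT1X. Each member is part of this mean, and MT1X, with the largest change, weighs most in it, so no r is given for the members.

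**Figure D5:**
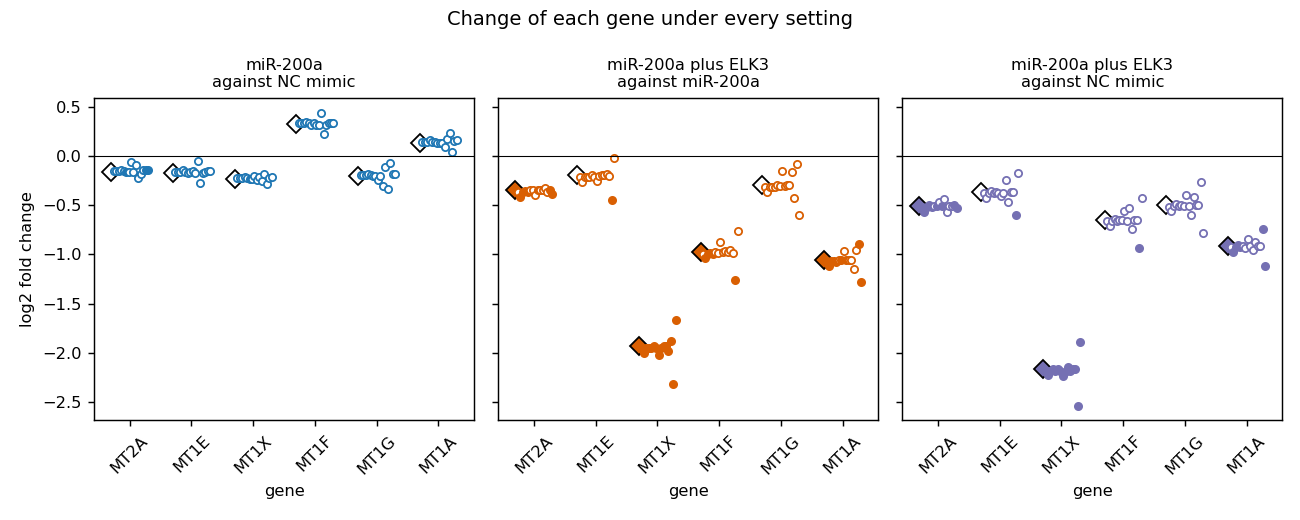
Log2 fold change (vertical axis) of the 5 metallothionein genes and MT1A (horizontal axis) in each comparison, as reported (diamonds) and under 15 alternative analyses (circles). Filled symbols have an adjusted p under 0.05. MT1X is called in each analysis of the middle and right panels, from -2.32 to -1.67 and from -2.54 to -1.88, and no point of these panels lies above 0.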

How the data were processed

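Raw counts per gene symbol were deposited by the authors for 6 libraries. Their processing notes name Bowtie2, edgeR and hg19 without versions, the paper names ExDEGA, and the counting program and annotation are not given in the sources used here. Each library lists 25737 lines, and lines of the 286 repeated symbols were summed. Groups came from the labels. The counts were analysed with R 4.3.3 and edgeR 4.0.16 (TMM, filterByExpr with a minimum count of 10, quasi-likelihood test, 1 model of 6 libraries, 3 residual degrees of freedom). DESeq2 1.42.0, limma 3.58.1 on quantile-normalized log2(count + 1), other filters and scalings, a replicate block and leaving out each library were the alternatives. The test was checked on simulated counts in which all groups had the same spread. That check does not cover the wider spread between the libraries labelled co-transfected. Members and gene lists were chosen with earlier results of these data known. Named were all members, ELK3, MTF1, SLC30A1, SLC39A10, listed genes past an adjusted p of 0.05 (at most 4 per list, by smallest adjusted p over the comparisons), and the 5 genes most like the members. Sequences came from RefSeq and transcripts from GENCODE.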

Additional observations from a re-analysis of the deposited data

How the results depend on the processing

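The changes of the 5 members in libraries labelled co-transfected kept their direction in all 15 alternatives, and MT1X was called in each. In the order miR-200a against the NC mimic, libraries labelled co-transfected against miR-200a, and the latter libraries against the NC mimic, 34, 1637 and 1629 genes and 0, 3 and 2 members were called. Without a filter, the genes called were 230, 2490 and 2525. In a model of the 2 compared groups alone they were 1047, 579 and 598, with 2, 1 and 1 members. With limma on quantile-normalized values they were 4, 107 and 391, with 0, 1 and 1 members. DESeq2 called 88 genes in the first comparison and 1 member in the second. The criteria of the study (unadjusted p under 0.05, fold above 1.5 and a log2 level above 3) gave 578 genes in the first comparison, and 2455 genes and 1 member in the third. With single libraries left out, the genes called ranged from 0 to 1010, 31 to 4684 and 96 to 4675, and the members called from 0 to 1, 1 to 4 and 1 to 4. Both upper ends of the last 2 comparisons came without the library labelled co-transfected replicate 1. A fit without 1 library leaves a lone sample that is assumed to vary like the others.

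With the replicate number as a block, 13, 1157 and 1170 genes and 0, 1 and 2 members were called. MT2A (adjusted p = 0.0921) and MT1F (adjusted p = 0.0659) were not called against miR-200a. The labels do not say that same-numbered libraries share a batch, and a batch acting on some genes only was not tested. Across genes, same-numbered libraries did not deviate together, with correlations of -0.003, -0.036 and -0.108. Because of the last value, a block with the numbers of the libraries labelled co-transfected crossed was added after seeing the data, and it called 22, 1644 and 1661 genes and 0, 2 and 2 members. The count of 0 members in the first comparison compares with 0 at an unadjusted p under 0.05. Depth limits MT1F and MT1G, which had 21 to 71 counts per library. The causes of these differences were not tested.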

Other observations

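Glucocorticoids induce MT2A, and the glucocorticoid receptor with 9 genes it is known to induce was among the lists. Of these 10 genes, 9 were tested, with the receptor gene among them and the induced gene ZBTB16 left out for its low counts. Of the 9 tested, 7 were lower in libraries labelled co-transfected than under miR-200a, beside 5.91% of all tested genes, and 0 were higher. The median of the list was -0.99 against 0.02 over all tested genes. PER1, a circadian clock gene, had 103 and 99 counts under the NC mimic, 98 and 109 under miR-200a, and 13 and 20 in libraries labelled co-transfected. Its log2 fold change was -2.44 ± 0.31 SE against miR-200a (edgeR adjusted p = 0.00257). ERRFI1, an inhibitor of the EGF receptor, had 2075 and 1505, 2120 and 2214, and 1109 and 849 counts in the same groups (-0.95 ± 0.14 SE, adjusted p = 0.00446). DUSP1, a phosphatase of MAP kinases, had -1.61 ± 0.23 SE (adjusted p = 0.00348), and TSC22D3, the glucocorticoid-induced leucine zipper, had -0.99 ± 0.21 SE (adjusted p = 0.0155). The 2 that were not called, NR3C1 and FKBP5, were named after their values were seen. The receptor gene NR3C1 had 515 and 314, 479 and 471, and 353 and 353 counts, with -0.23 ± 0.14 SE (adjusted p = 0.285). FKBP5, another induced gene, had 0.29 ± 0.19 SE (adjusted p = 0.319). Against the NC mimic, 6 of the 9 were lower, beside 5.95% of all tested genes. These counts depended on single libraries. Fewer of the 9 were called against miR-200a without either miR-200a library, and against the NC mimic without either NC mimic library. Fewer of all tested genes were called in those fits as well. Without the library labelled co-transfected replicate 1, more of the 9 were called lower against the NC mimic, and so were more of all tested genes. The members of this list are also induced by other stimuli, and hormone levels were not measured.

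Of 12 stress genes that heavy metals also induce, 2 were higher and 1 was lower in libraries labelled co-transfected than under miR-200a, beside 7.03% and 5.91% of all tested genes. HSPH1, a large heat shock protein, had 624 and 484 counts under the NC mimic, 751 and 720 under miR-200a, and 1248 and 1429 in libraries labelled co-transfected (1.06 ± 0.13 SE, adjusted p = 0.00236). DNAJB1, a co-chaperone, rose by 0.62 ± 0.18 SE (adjusted p = 0.0472). HMOX1, the heme oxygenase that cadmium induces along with metallothioneins, had 81 and 56, 127 and 124, and 66 and 51 counts (-0.90 ± 0.23 SE, adjusted p = 0.0291). Against the NC mimic, HSPH1 and DNAJB1 were higher and TXNRD1, a thioredoxin reductase, was lower (-0.69 ± 0.19 SE, adjusted p = 0.0388), beside 6.92% of all tested genes called higher and 5.95% lower. With the replicate number as a block, DNAJB1 was not called against miR-200a. In that comparison, 0 of the 12 were called when either miR-200a library was left out, and HSPH1 alone was called when either NC mimic library was left out. Against the NC mimic, 0 were called without NC mimic replicate 1, and HSPH1 alone was called without NC mimic replicate 2, miR-200a replicate 1 or miR-200a replicate 2. These fits called fewer of all tested genes than the fit of all 6 libraries. Without the library labelled co-transfected replicate 1, more of the 12 were called in both comparisons, and so were more of all tested genes.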
